A study of Mus musculus with 2 samples.

Results

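The amino acid and peptide transporters described here are the members of 8 solute carrier (Slc) families, Slc1, Slc3, Slc6, Slc7, Slc15, Slc36, Slc38 and Slc43. The rule reads names and no values: it takes every probe set whose single gene symbol in the platform annotation is one of these family names followed by "a" and a number; the families themselves were picked with earlier results of these data known. This gave 126 of 45101 probe sets, for 63 of 18194 genes. Each family was compared across 2 follicle structures. These were the bulge, the stretch of outer root sheath where the follicle keeps its stem cells, and the hairshaft, each cut by laser from stained frozen skin of C57Bl6 mice aged 21 days. There was 1 array for the bulge and 1 for the hairshaft, hybridised with RNA amplified from 30 ng. No treatment, transgene or deletion is named for either, and the sources used here do not state the number and sex of the animals or how the structures were recognised.

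Cells cannot make all amino acids and cannot let charged or polar ones through their membranes, so carriers set how much of each enters, leaves or reaches the lysosome. Slc1 carriers take up glutamate or exchange small neutral amino acids; Slc6 carriers use the sodium and chloride gradients and include uptake of taurine, creatine and the monoamine transmitters. Slc7 light chains work at the surface only when bound to an Slc3 heavy chain, except for the cationic carriers of the same family, which work alone. Slc15 carriers move small peptides with protons, Slc36 carriers move small amino acids with protons, Slc38 carriers bring in glutamine and other neutral amino acids with sodium, and Slc43 carriers let large neutral ones pass down their gradient. In skin, amino acids feed the synthesis of keratins, and cystine import feeds both hair protein and glutathione.

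All values are log2 summaries of probe sets as the authors deposited them, made with GCRMA, a method that corrects background from the probe sequence and normalises the arrays to each other. A probe set is a group of short probes for 1 transcript, and values of different probe sets are not comparable as amounts, so each comparison below is between the 2 arrays for the same probe set. A value of 2.68, the level that 95% of 80 olfactory and vomeronasal receptor probe sets did not exceed, is called the floor. A gene is given by its probe set with the highest mean, a difference is bulge minus hairshaft on the log2 scale, and a value at or below the floor was replaced by the floor, which makes the fold a lower bound ("at least"). With 1 array per structure there is no replicate spread and no test, so every fold describes these 2 arrays only. In such tissue pieces, fewer cells of a type and less RNA per cell cannot be told apart.

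The tissue on both arrays held other cell types besides follicle cells, and the arrays also differed in sex-linked transcripts. All 16 markers of skeletal muscle, all 9 of adipocytes, all 10 of endothelium and all 10 of smooth muscle were 2-fold or more higher in the bulge. The summed linear signal of the muscle list was 224000 on the bulge array against 133 on the hairshaft array, where Tnnc2, Myh1, Ttn, Actn3, Atp2a1 and Casq1 were at or below the floor. That of the adipocyte list was 53700 and 467, with Adipoq, Cidec, Lep and Retn at or below the floor in the hairshaft. Car3 alone, at 14.92 in the bulge and 5.69 in the hairshaft, made up most of the adipocyte sum on the bulge array. The sum was 1370 and 128 for the endothelial list, with Pecam1, Cdh5 and Kdr at or below the floor in the hairshaft. For the smooth muscle list it was 8100 and 1450. In the sebaceous list 5 of 8 markers, in the melanocyte list 4 of 7 and in the nerve list 2 of 7 were 2-fold or more higher in the bulge, and no member was so toward the hairshaft. The fibroblast list (4 of 9) and the list of macrophage, mast and T cell genes (4 of 12) had members 2-fold or more higher in the hairshaft and none in the bulge, while 11 of 12 keratinocyte markers were under 2-fold apart. Of 11 bulge markers 8 were 2-fold or more higher in the bulge, but so were 7 of 13 hair shaft markers, and none of these 13 was 2-fold or more higher in the hairshaft, so the hairshaft label was not borne out by hair keratins. The Y-linked gene Eif2s3y had 2.48 in bulge and 9.48 in hairshaft tissue with its bright probe set, and all 4 probe sets of Uty, also Y-linked, were over 9-fold higher in the hairshaft. Xist, the RNA that silences an X chromosome in female cells, had 10.18 and 9.50 with one probe set and 11.06 and 8.98 with another. The sex of the animals is not stated, and the part of these cell types and of sex in the differences below was not tested.

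Among the transporters, the genes at least 2-fold apart between the arrays fell in both directions. Of the 63 genes, 6 were 2-fold or more higher in the bulge (9.52%), where 8.39% of all 18194 genes were this far apart. In the hairshaft 5 of 63 were at least 2-fold higher (7.94%), against 3.6% of all genes. By probe set, 7 of 126 were 2-fold or more higher in the bulge, beside 6.06% of all probe sets, and 10 in the hairshaft, beside 4.69%; these 10 belong to 7 genes, so they are not independent readings. The share in the bulge is near the background, and the count in the hairshaft is a handful of genes. The median difference was 0 over the 63 genes and 0 over all genes. A total of 23 transporter genes did not exceed the floor on either array, which leaves 40 (63.5%) above it on at least 1, against 73.3% of all genes. Of these 40, 29 were under 2-fold apart, with differences from -0.85 to 0.93, and 4 of the 29 had the same deposited value on both arrays.

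**Figure D1:**
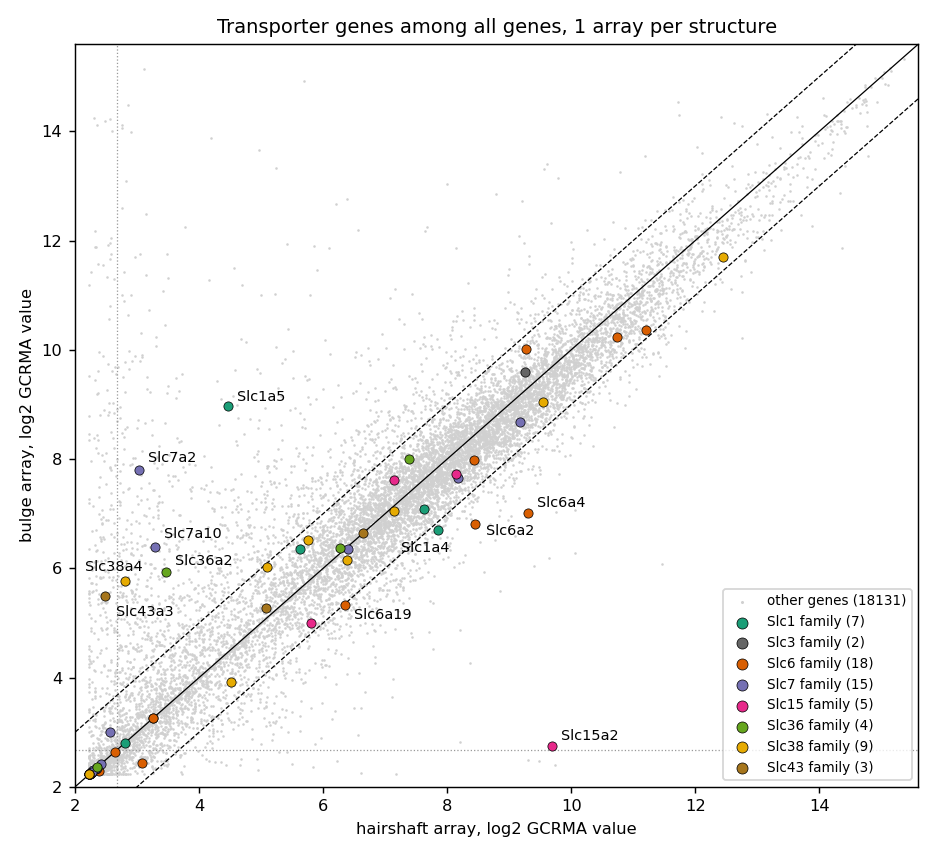
Each point is a gene, with its log2 GCRMA value on the hairshaft array (x axis) and the bulge array (y axis); transporter genes are coloured by family over all other genes in grey, the dashed lines mark 2-fold and the dotted lines the floor of 2.68. Most transporters lie between the dashed lines, 6 lie above them and 5 below, with Slc15a2 the farthest from the diagonal.

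The promoters of 6 transporters that differed by at least 2-fold are shown, those of the 11 that the RefSeq promoter table lists, since these are genes in which the arrays differ and their promoters show whether the genes that share a direction also share known short motifs. Each run is 5′ to 3′ in the direction of the gene, with 250 bases before and 20 after the RefSeq start of GRCm38.p6, and capitals mark every match to 3 motifs searched on both strands, the amino acid response element TGATGNAA, the E-box CAGCTG and the TATA box TATAAA. Slc15a2 (chr16:36784943-36785212, minus strand), Slc6a4 (chr11:76998347-76998616, plus strand), Slc1a4 (chr11:20332694-20332963, minus strand) and Slc6a19 (chr13:73692617-73692886, minus strand) were higher in the hairshaft; Slc7a10 (chr7:35186135-35186404, plus strand) and Slc38a4 (chr15:97055937-97056206, minus strand, the first of 3 starts listed) were higher in the bulge.
Slc15a2: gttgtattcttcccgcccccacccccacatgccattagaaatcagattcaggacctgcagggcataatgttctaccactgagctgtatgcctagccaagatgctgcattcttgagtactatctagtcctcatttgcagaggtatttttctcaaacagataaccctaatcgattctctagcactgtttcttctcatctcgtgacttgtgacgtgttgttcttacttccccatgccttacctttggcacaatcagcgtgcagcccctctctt
Slc6a4: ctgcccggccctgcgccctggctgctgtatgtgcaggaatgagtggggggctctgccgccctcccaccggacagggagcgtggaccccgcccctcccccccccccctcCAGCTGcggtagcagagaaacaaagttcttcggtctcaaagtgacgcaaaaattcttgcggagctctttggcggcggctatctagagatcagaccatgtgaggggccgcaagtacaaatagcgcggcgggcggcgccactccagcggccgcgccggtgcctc
Slc1a4: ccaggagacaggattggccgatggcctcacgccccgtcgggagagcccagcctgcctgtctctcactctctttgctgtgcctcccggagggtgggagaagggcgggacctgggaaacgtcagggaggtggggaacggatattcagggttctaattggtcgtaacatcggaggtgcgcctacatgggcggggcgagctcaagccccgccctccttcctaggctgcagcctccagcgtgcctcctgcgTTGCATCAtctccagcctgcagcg
Slc6a19: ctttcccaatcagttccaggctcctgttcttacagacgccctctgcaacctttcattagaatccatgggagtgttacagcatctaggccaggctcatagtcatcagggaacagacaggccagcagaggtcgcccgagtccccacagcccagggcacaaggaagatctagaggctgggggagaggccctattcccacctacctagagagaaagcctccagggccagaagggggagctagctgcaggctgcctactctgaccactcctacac
Slc7a10: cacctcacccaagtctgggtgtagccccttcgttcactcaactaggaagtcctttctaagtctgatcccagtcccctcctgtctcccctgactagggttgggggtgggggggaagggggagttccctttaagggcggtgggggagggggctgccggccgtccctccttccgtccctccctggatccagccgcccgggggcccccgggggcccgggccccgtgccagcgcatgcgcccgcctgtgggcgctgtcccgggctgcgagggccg
Slc38a4: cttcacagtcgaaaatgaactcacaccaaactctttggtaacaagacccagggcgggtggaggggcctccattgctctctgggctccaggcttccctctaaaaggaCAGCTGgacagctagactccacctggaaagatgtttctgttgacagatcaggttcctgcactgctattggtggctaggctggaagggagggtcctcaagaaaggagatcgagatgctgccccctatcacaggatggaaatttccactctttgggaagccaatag
The 6 sequences hold no motif in common: CAGCTG is present in Slc6a4 and Slc38a4, which differed in opposite directions, TGATGNAA lies across the start of Slc1a4, and Slc15a2, Slc6a19 and Slc7a10 hold none of the 3. Over the 66 promoters listed for 45 of the 63 transporter genes, searched in windows of 300 bases, TGATGNAA was present in 6, or 9.09% against 3.97% of all 32851 promoters in the table. Its genes were Slc1a4, Slc6a21, Slc7a7, Slc7a11 and Slc15a5, of which only Slc1a4 was above the floor on either array. Overlapping windows of Slc7a7 held the same site, at -1 from one start and -243 from another, so it entered the 6 more than once. CAGCTG was present in 19.7% of the transporter promoters and 16.3% of all, and TATAAA in 9.09% and 13.6%. Slc7a9 likewise entered the CAGCTG share with overlapping windows that held the same site, at 29 and -58. These matches describe letters in the windows only.

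The peptide carriers of the Slc15 family held the largest difference among the transporters. Slc15a2 encodes PEPT2, the carrier that takes up dipeptides and tripeptides with protons at the cell surface. Its probe set 1417600_at had 2.76 in the bulge, just above the floor, and 9.69 in the hairshaft, 122-fold apart. Of all 18194 genes only Rpgrip1 had a larger difference in this direction, and the Y-linked Eif2s3y was the third. The sources used here do not say whether both arrays come from the same animals. Eif2s3y had 2.48 in the bulge, below the floor, and 9.48 in the hairshaft with its bright probe set. Male tissue thus did not enter both arrays in like shares, and a difference between structures and one between animals cannot be told apart here. The other 2 probe sets of Slc15a2, 1424730_a_at and 1447808_s_at, did not exceed the floor on either array, so the difference rests on 1 probe set. The mean of the 3 probe sets gave a difference of -2.07 on the log2 scale.

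The other peptide carriers were close on both arrays. Slc15a1, the PEPT1 carrier known from the gut, had 7.61 on the bulge array against 7.15 on the hairshaft array. Slc15a3 and Slc15a4, which export peptides and histidine from lysosomes, had 5.01 and 7.72 in the bulge and 5.81 and 8.14 in the hairshaft, 1.75-fold and 1.34-fold higher there. Slc15a5 was at or below the floor. The surface carriers PEPT1 and PEPT2 thus read in opposite directions, with only PEPT2 past 2-fold.

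In the Slc1 family both neutral exchangers were past 2-fold, in opposite directions. Slc1a5, or ASCT2, which exchanges glutamine for other neutral amino acids, had 8.97 in bulge and 4.47 in hairshaft tissue with probe set 1416629_at, 22.6-fold apart. Its second probe set, 1440379_at, was not above the floor on either array. Slc1a4, or ASCT1, which exchanges alanine, serine and cysteine, had 6.70 on the bulge array against 7.85 on the hairshaft array, 2.21-fold higher in the hairshaft. All 3 of its probe sets were higher in the hairshaft, by 2.02-fold, 1.39-fold and 2.21-fold, but the mean of the 3 (-0.88 on the log2 scale) and the brightest plain probe set (-0.48) were under 2-fold.

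The glutamate carriers of the family did not reach 2-fold. Slc1a1, which takes up glutamate and cysteine, had 7.09 in bulge and 7.63 in hairshaft tissue. Slc1a3, the glutamate carrier GLAST, had 6.36 and 5.63, and its next brightest probe set differed by 0.97 on the log2 scale, just inside the 2-fold limit, while the other 3 above the floor had the same value on both arrays. Slc1a2, the main glutamate carrier of astrocytes, and Slc1a7, that of the retina, were near the floor at 2.80 and 3.26 on both arrays, and Slc1a6 was at or below it.

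Of the 2 heavy chains, only Slc3a2 was detected. Slc3a2, or CD98, carries most Slc7 light chains to the surface, and had 9.59 on the bulge array against 9.26 on the hairshaft array, 1.26-fold apart. Slc3a1, the heavy chain of the kidney cystine carrier, was not above the floor on either array, nor was its light chain Slc7a9.

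The light chains that pair with CD98 were divided. Slc7a10, or Asc-1, an exchanger of small neutral amino acids known from brain and white fat cells, had 6.39 in bulge and 3.28 in hairshaft tissue, 8.64-fold apart with its only probe set. Slc7a5, or LAT1, the exchanger of large neutral amino acids, had 6.35 on the bulge array against 6.40 on the hairshaft array. Slc7a6, which exchanges cationic for neutral amino acids, had 8.68 in bulge and 9.17 in hairshaft tissue with one probe set and 8.42 and 9.40 with the other, 1.41-fold and 1.97-fold higher in the hairshaft. Thus among the light chains with a value above the floor 1 was higher in the bulge past 2-fold and the rest were not. The chains Slc7a7, Slc7a8 and Slc7a11, the cystine importer xCT, did not exceed the floor on either array with each of their probe sets, so a difference in them was not detectable here.

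Among the cationic carriers of the Slc7 family, which bring in arginine and lysine without a heavy chain, Slc7a2 was the exception. Slc7a2, or CAT2, had 7.81 on the bulge array against 3.03 on the hairshaft array with probe set 1436555_at, 27.4-fold apart, the largest difference toward the bulge among the transporters. Its other 3 probe sets lay between 2.40 and 2.93 on both arrays and showed no such gap, and the mean of the 4 gave a difference of 1.28 on the log2 scale. Slc7a1, or CAT1, the widely expressed carrier of the same substrates, had 7.66 in bulge and 8.18 in hairshaft tissue, and 6.68 and 6.56 with its second probe set. Slc7a3, or CAT3, was at or below the floor. Slc7a4, a family member of unsettled transport function, was near the floor at 3.0 and 2.56. Slc7a12 to Slc7a15, named here as members of the family and not as cationic carriers, were at or below it.

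**Figure D2:**
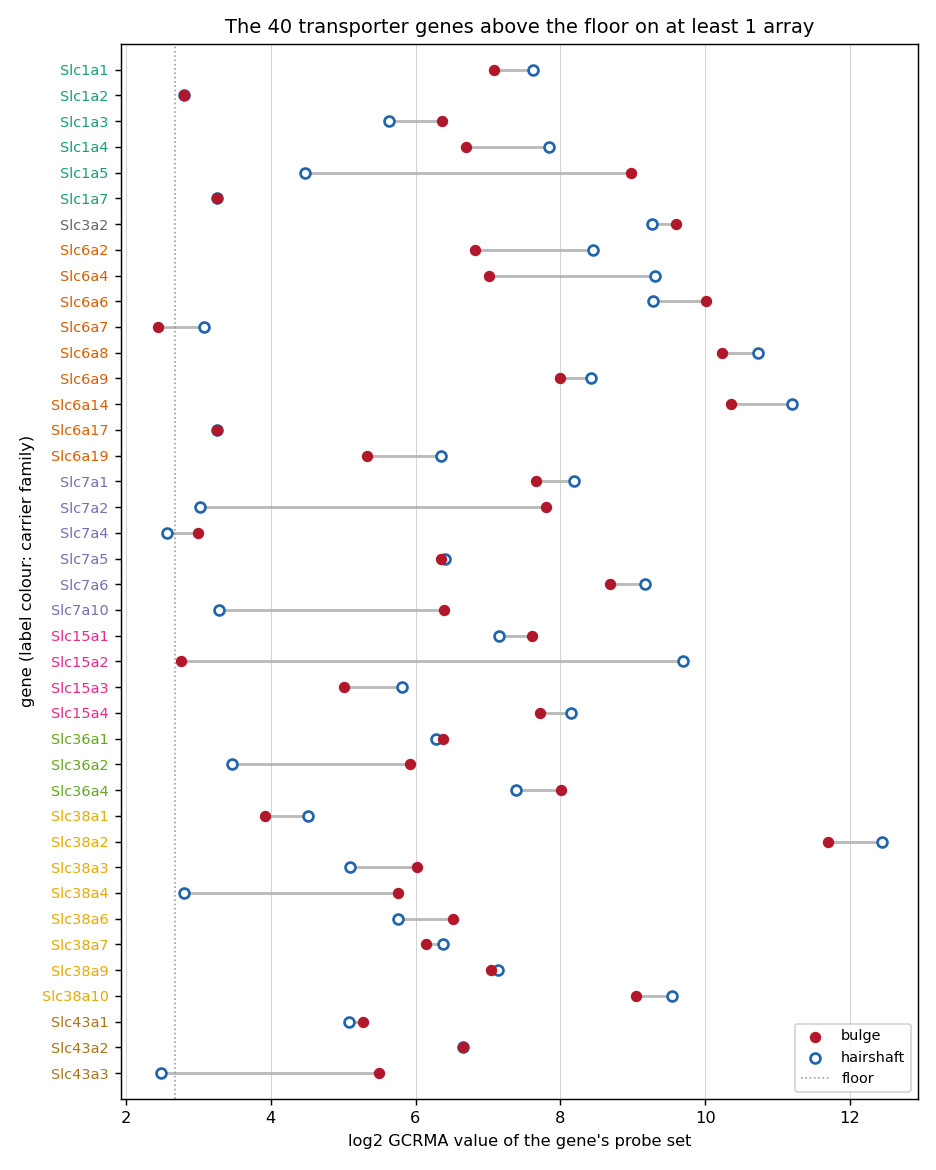
For each of the 40 transporter genes above the floor on at least 1 array, the filled red point is the log2 GCRMA value in the bulge and the open blue point that in the hairshaft (x axis), joined by a line; gene labels are coloured by family and the dotted line is the floor of 2.68. Long lines are few, from Slc15a2 (2.76 and 9.69) to Slc36a2 (5.93 and 3.46).

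The Slc6 family held 3 of the 5 transporters past 2-fold toward the hairshaft and none toward the bulge. Slc6a4, the serotonin carrier, had 7.02 on the bulge array against 9.31 on the hairshaft array with its only probe set, 4.89-fold apart. Slc6a2, the noradrenaline carrier, had 6.81 and 8.44 with probe set 1460129_at, 3.09-fold higher in the hairshaft. Its other 3 probe sets were between 1.10-fold and 1.32-fold apart, 1 of them toward the bulge, and the mean of the 4 was under 2-fold (-0.57 on the log2 scale). Slc6a19, the neutral amino acid carrier B0AT1 of gut and kidney, had 5.33 and 6.35, and 4.63 and 5.64 with its second probe set, each 2.02-fold higher in the hairshaft and only just past the limit.

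Markers of mast cells, which are known to store serotonin, were higher on the same array as Slc6a4. Cpa3, the mast cell carboxypeptidase, had 6.52 in bulge and 8.77 in hairshaft tissue, and the chymase Cma1 had 5.79 and 7.24, while Kit, the mast cell growth factor receptor, had 3.91 and 3.19. The summed linear signal of the 12 macrophage, mast and T cell genes was 4540 on the bulge array against 9090 on the hairshaft array, with none at or below the floor. Most of that gap was H2-Eb1, an antigen-presenting class II gene and no mast cell gene, at 6.09 and 11.47; without it the sums of the other 11 genes were 4470 and 6260, with 8 of the 11 higher in the hairshaft and 3, Kit among them, higher in the bulge. Their part in the Slc6a4 difference was not tested.

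The other Slc6 carriers above the floor, which move amino acids and small organic solutes, were under 2-fold apart. Slc6a14, which takes up neutral and cationic amino acids, had 10.36 in bulge and 11.20 in hairshaft tissue, and 9.40 and 10.31 with its second probe set, 1.80-fold and 1.88-fold higher in the hairshaft. Slc6a8, the creatine carrier, had 10.23 and 10.74, while the creatine kinase of muscle (Ckm) had 14.07 on the bulge array against 2.76 on the hairshaft array. Slc6a6, the taurine carrier, had 10.02 in bulge and 9.27 in hairshaft tissue, and 3 of its 4 probe sets were higher in the bulge. For Slc6a9, a glycine carrier, the 2 probe sets read in opposite directions, at -0.44 and 0.26 on the log2 scale. Slc6a7 and Slc6a17 were near the floor, and the other 9 members (Slc6a3, Slc6a5, Slc6a11, Slc6a12, Slc6a13, Slc6a15, Slc6a16, Slc6a18 and Slc6a21) were at or below it on both arrays.

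Among the Slc38 carriers of glutamine and other neutral amino acids, 1 gene was past 2-fold. Slc38a4, or SNAT4, an imprinted gene, had 5.76 on the bulge array against 2.81 on the hairshaft array, 7.74-fold apart. Its second probe set had 5.27 and 3.15, 4.34-fold apart in the same direction, which made it the 1 gene of the 6 higher in the bulge with a second probe set also past 2-fold. Slc38a2, or SNAT2, the carrier that cells induce when amino acids are short, had 11.70 in bulge and 12.44 in hairshaft tissue, 1.68-fold higher in the hairshaft. Its dimmer probe sets 1429593_at and 1429594_at had 8.31 and 2.55 in the bulge and 9.45 and 4.84 in the hairshaft, 2.21-fold and at least 4.46-fold, so all 3 read toward the hairshaft and only the brightest was under 2-fold. Slc38a1, a glutamine carrier, had 3.92 and 4.52, and 2.84 and 3.92 with its second probe set, 1.52-fold and 2.11-fold higher in the hairshaft.

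The remaining Slc38 carriers were all under 2-fold apart by their brightest probe set. Slc38a3, which moves glutamine and histidine, had 6.02 on the bulge array against 5.09 on the hairshaft array (1.91-fold), and Slc38a6 had 6.52 and 5.76 (1.69-fold). Slc38a10 had 9.05 and 9.54, and all 6 of its probe sets above the floor were higher in the hairshaft, by at most 0.57 on the log2 scale. Slc38a9, the lysosomal sensor of arginine for the growth kinase complex mTORC1, had 7.04 and 7.14, and its 7 probe sets read in both directions, from -0.20 to 0.56. Slc38a7 had 6.15 and 6.38, and Slc38a5 was at or below the floor.

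In the small Slc36 and Slc43 families 1 gene each was higher in the bulge. Slc36a2, or PAT2, a proton-coupled carrier of glycine, alanine and proline known as a surface marker of brown and beige fat cells, had 5.93 in bulge and 3.46 in hairshaft tissue, 5.52-fold apart. Slc36a1, the lysosomal carrier PAT1, had 6.37 and 6.28, Slc36a4 had 8.0 and 7.39, and Slc36a3 was at or below the floor. Slc43a3, a purine nucleobase carrier of its family, had 5.49 on the bulge array against 2.48 on the hairshaft array, at least 7.06-fold apart. Of its relatives, which carry branched-chain and other large neutral amino acids, Slc43a1 was nearly level at 5.28 and 5.08. Slc43a2 had the same deposited value, 6.65, on both arrays, and such a tie is not a measurement of equal expression. Slc36a2, Slc43a3 and Slc7a10 have 1 probe set each, so no second reading bears on them. These 3 genes shared their direction with all 9 adipocyte, 10 endothelial, 16 skeletal muscle and 10 smooth muscle markers. The part of these cell types in the differences was not tested.

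**Figure D3:**
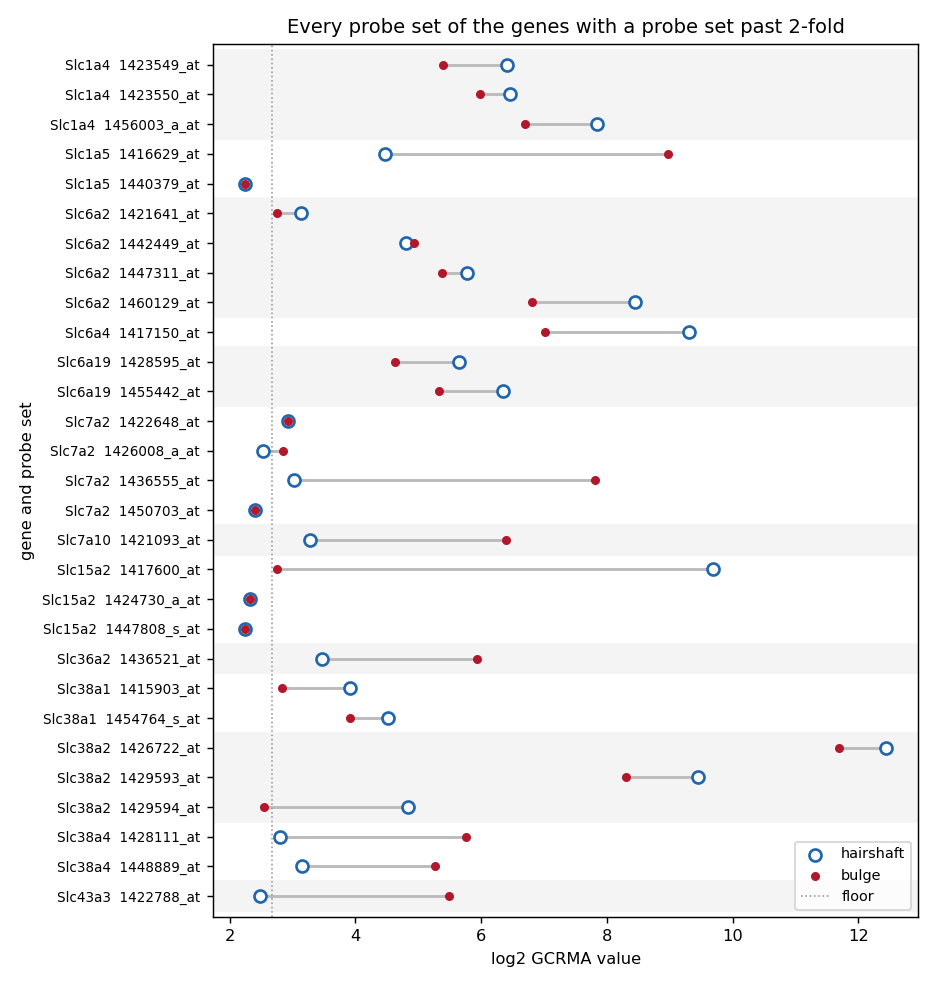
Every probe set of the 11 genes past 2-fold and of Slc38a1 and Slc38a2 is shown by its log2 GCRMA value (x axis) in the bulge (filled red) and the hairshaft (open blue), grouped by gene, with the floor of 2.68 dotted. For Slc15a2, Slc7a2 and Slc1a5 a single probe set shows the gap and the others lie close to the floor, whereas all probe sets of Slc38a4, Slc1a4, Slc6a19, Slc38a1 and Slc38a2 point the same way.

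Probe sets of the same gene were the only repeat reading of these transporters. Of 20 genes with at least 2 probe sets above the floor, 9 had all of them in 1 direction, 5 had some in each direction (Slc6a2, Slc6a6, Slc6a9, Slc7a1 and Slc38a9) and 6 had some in 1 direction or none and some with the same value on both arrays. In none of the 20 did probe sets lie past 2-fold in opposite directions. The other 20 genes above the floor had 1 probe set above it.

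By family, the counts 2-fold or more higher in the bulge and in the hairshaft were 1 and 1 of 7 genes for Slc1, 0 and 0 of 2 for Slc3, 0 and 3 of 18 for Slc6, 2 and 0 of 15 for Slc7, 0 and 1 of 5 for Slc15, 1 and 0 of 4 for Slc36, 1 and 0 of 9 for Slc38 and 1 and 0 of 3 for Slc43. The median difference was 0 in the Slc1, Slc6 and Slc7 families, -0.42 for Slc15, -0.10 for Slc38, 0.17 for Slc3, 0.36 for Slc36 and 0.20 for Slc43. Genes that did not exceed the floor on either array enter these medians as 0, 9 of 18 in Slc6 and 9 of 15 in Slc7, and pull them toward it. Over the genes above the floor alone, as a description, the medians were 0 for Slc1, 0.34 for Slc3 (1 gene), -0.51 for Slc6, 0.14 for Slc7, -0.61 for Slc15, 0.62 for Slc36, -0.17 for Slc38 and 0.20 for Slc43, beside 0 over all genes above it. In Slc6 7 of the 9 genes above the floor read toward the hairshaft and 1 toward the bulge. Among these 7, Slc6a7 was near the floor, and Slc6a2 and Slc6a9 had probe sets in both directions. Over all 18194 genes, those with no difference began at rank 6206 from the hairshaft side and at rank 5982 from the bulge side. Each of the family medians was under 2-fold, and the gaps past 2-fold were in single genes. A family of 2 to 18 genes with 1 array per structure allows no test of a difference between families.

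Genes that act with the carriers were taken from 5 lists of known function, and their counts are to be read against all genes, of which 8.39% were 2-fold or more higher in the bulge and 3.6% toward hairshaft. In the list of the amino acid response, which induces several carriers when amino acids are short, 1 of 23 measured genes was 2-fold or more higher in the bulge (4.35%), 3 in the hairshaft (13.0%) and 19 were not, with a median of 0.12. Trib3, a pseudokinase target of this response, had 4.86 in bulge and 6.84 in hairshaft tissue, 3.96-fold higher in the hairshaft. Mthfd2, a mitochondrial folate enzyme, was 2.27-fold and Ddit3, the stress factor CHOP, 2.06-fold higher there. For Mthfd2 and for Ddit3 only 1 of 2 probe sets was past 2-fold. Psph, which makes serine, had 10.11 on the bulge array against 7.61 on the hairshaft array. The asparagine enzyme Asns was 1.94-fold higher in the hairshaft, under the limit.

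In amino acid sensing upstream of mTORC1 the share was at the background: 3 of 33 genes were 2-fold or more higher in the bulge (9.09%, against 8.39% of all genes), and no gene reached this limit toward the hairshaft, with a median of -0.05. Rragd, a Rag GTPase that brings mTORC1 to the lysosome, had 8.57 in bulge and 2.99 in hairshaft tissue, 47.8-fold apart, but only 1 of its 3 probe sets was past 2-fold and the hairshaft value is near the floor. Castor2, an arginine sensor homologue, was 2.29-fold and Rraga, another Rag GTPase, 2.06-fold higher in the bulge. For Castor2 only 1 of 4 probe sets was past 2-fold, and Rraga has 1 probe set. The other 30 of the list were not this far apart. Among amino acid carriers of other families, 2 of 20 were 2-fold or more higher in the bulge (10%, again near 8.39%), with no counterpart toward the hairshaft, where 3.6% of all genes were. They were Slc25a12, a mitochondrial aspartate and glutamate carrier (9.99 and 8.12), and Slc16a12, a creatine carrier (4.28 and 2.89). For Slc25a12 only 1 of 3 probe sets was past 2-fold, and Slc16a12 has 1 probe set.

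Both lists of enzymes held more genes past 2-fold in the bulge than in the hairshaft, as all genes did (8.39% and 3.6%). Of 22 glutathione and cysteine genes, 5 were 2-fold or more higher in the bulge (22.7%) and 1 in the hairshaft (4.55%), with a median of 0.52, while the summed linear signal of the list was level at 17800 and 18100. Cdo1, which breaks down cysteine and is abundant in fat, had 9.45 on the bulge array against 2.32 on the hairshaft array, at least 109-fold apart. Dpep1, a surface dipeptidase, was 4.75-fold, Lap3, an aminopeptidase, 3.73-fold, Gpx4 3.56-fold and Gclm 2.04-fold higher in the bulge. Ggct, an enzyme of glutathione breakdown, was 2.44-fold higher in the hairshaft.

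Of 24 enzymes of glutamine, arginine, branched-chain amino acids and creatine, 9 were 2-fold or more higher in the bulge (37.5%, beside 8.39% of all genes) and 1, Arg2, in the hairshaft (4.17%, beside 3.6%), with a median of 0.57. The muscle creatine kinases Ckm and Ckmt2 led this list at 2544-fold and 204-fold, in step with the muscle markers, of which Ckm is one. Got1, an aspartate aminotransferase, was 4.90-fold, Glul, which makes glutamine, 2.95-fold and Dbt, of branched-chain breakdown, 3.63-fold higher in the bulge. The muscle list was higher in the same array, and its part in these counts was not tested.

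**Figure D4:**
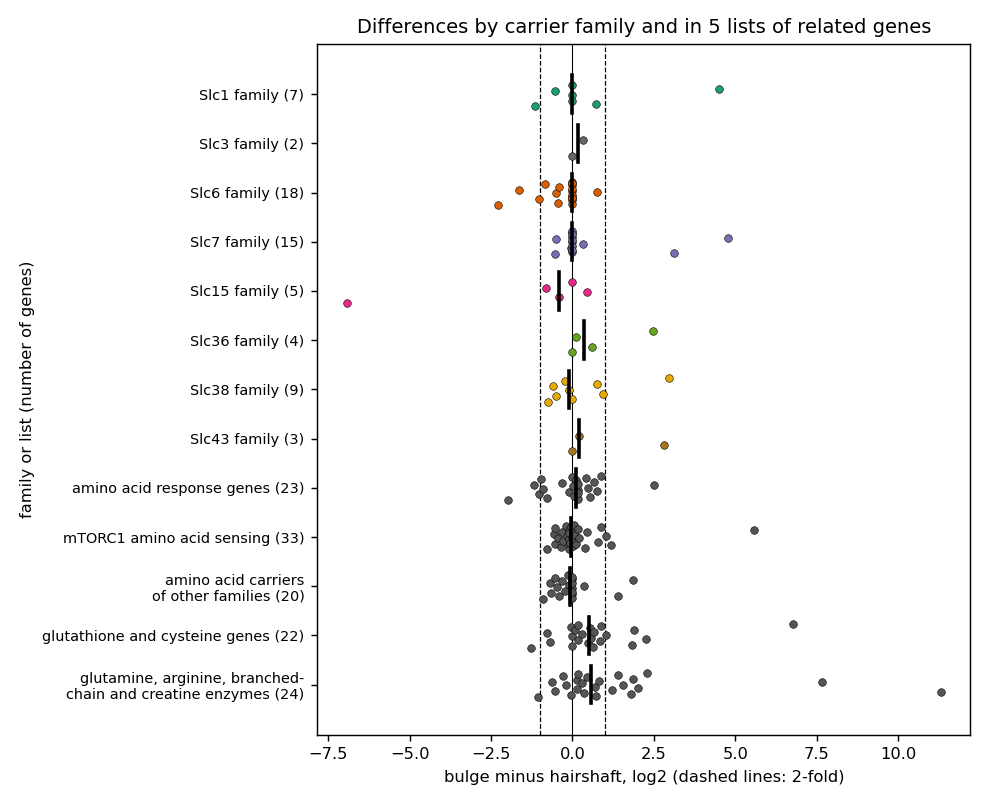
Each point is a gene at its bulge minus hairshaft difference in log2 (x axis), by carrier family above and by list of related genes below (number of genes in brackets); vertical bars are medians and dashed lines mark 2-fold. The bars of the families lie between -0.42 and 0.36, with single genes far outside, and those of both enzyme lists lie to the right of 0.5.

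The size of the gap moved with how the probe sets and the floor were handled, but 8 of the 11 genes stayed past 2-fold in the same direction under each of 8 alternatives. These were the 6 genes higher in the bulge, Slc15a2 and Slc6a4. The 8 alternatives are not independent checks. Slc6a4, Slc7a10, Slc36a2 and Slc43a3 have 1 plain probe set each, so the mean over probe sets and the use of plain ones could not change them. The brightest probe sets of Slc15a2, Slc7a2, Slc1a5 and Slc38a4 are plain too, so the use of plain ones could change none of the 8. For Slc6a4 and Slc1a5, with both values above each floor, the choice of floor could not change the difference. Removing the floor could change only Slc43a3, the only one of the 8 with a value below it. The smallest value for Slc15a2 was 2.07 (log2, toward the hairshaft), for Slc7a2 1.28, for Slc1a5 2.25, for Slc43a3 1.28, for Slc38a4 1.55, for Slc36a2 1.51 and for Slc7a10 1.96, and that for Slc6a4 was 2.16 toward the hairshaft. The hairshaft values of Slc38a4, Slc36a2, Slc7a10, Slc7a2 and Slc43a3 and the bulge value of Slc15a2 lie below 4.21. This is the stricter floor that 99% of those receptors did not exceed. With it the differences of the genes higher in the bulge were at least 1.55, 1.72, 2.18, 3.59 and 1.28. They stood in place of 2.95, 2.46, 3.11, 4.78 and 2.82. The difference of Slc15a2 was -5.47 in place of -6.93, again a lower bound on its size. Slc1a4 was under 2-fold with 2 alternatives and Slc6a2 and Slc6a19 with 1 each.

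**Figure D5:**
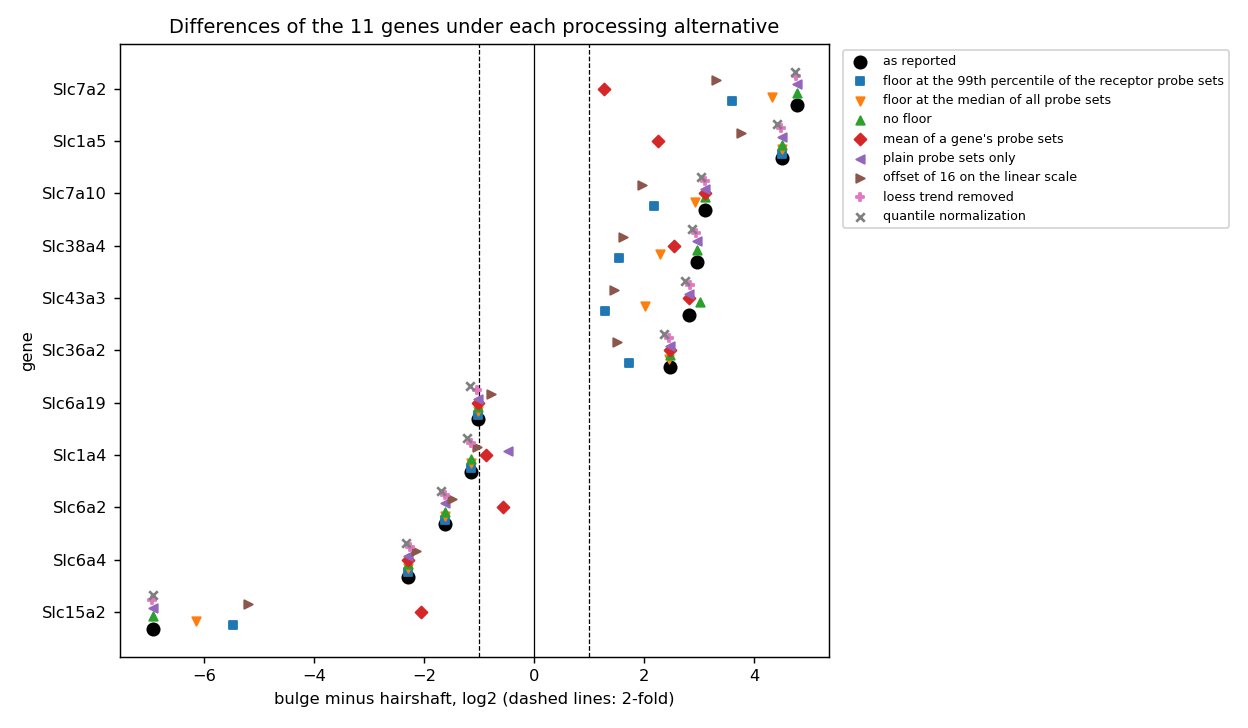
For the 11 genes at least 2-fold apart (y axis), the bulge minus hairshaft difference in log2 (x axis) is shown as reported (black circle) and under each of 8 processing alternatives (other symbols, named in the key), with dashed lines at 2-fold. No gene changes side, and Slc15a2, Slc7a2 and Slc1a5 move most, when the probe sets of a gene are averaged.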

How the data were processed

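Gene expression was measured on 2 arrays of 45101 probe sets, 1 for the bulge and 1 for the hairshaft. The values deposited by the authors are log2 values made with GCRMA, per the submitters' processing notes; the sources used here do not give its settings. That the scale is log2 follows from the range of the values, 2.23 to 15.36; the sorted columns differed by at most 0.19, so no further scaling was applied. An array has no sequencing depth, and the number of arrays limits the precision. No column was left unused (0).

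The platform annotation gave 1 gene symbol to 34958 probe sets, several to 932 and none to 9211. Symbols were updated through the Entrez identifier to RefSeq names of GRCm38.p6 for 34754, which changed 0 of the members' symbols. Each gene took its probe set with the highest mean, and counts were made at a fixed 2-fold limit over all genes, those at the floor included. No genome build is stated for the arrays; the promoter coordinates are those of the RefSeq promoter table (GRCm38.p6) and were used for the sequences only. With 0 residual degrees of freedom, no test was run. The members and lists were chosen with earlier results of these data known. Every transporter could be named, with values for those at least 2-fold apart, the brightest of each family, the heavy and light chains above the floor, and from each list up to 3 genes with the largest difference; Asns, Ddit3, Gpx4, Gclm, Ggct, Glul, Dbt, Arg2, the marker genes given by value, Rpgrip1 and the sex-linked genes were chosen with their values in view. The counting was tested on simulated data. The 8 alternatives were a floor at the receptor probe sets' 99th percentile, one at the median of all probe sets, no floor, a mean over each gene's probe sets, plain probe sets only, an offset of 16 on the linear scale, a loess trend removed (span 0.3) and quantile normalization. The software was matplotlib 3.10.9, statsmodels 0.14.6, numpy 2.4.6, pandas 2.3.3 and Python 3.11.15.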

Additional observations from a re-analysis of the deposited data

How the results depend on the processing

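Of 156 counts and medians recomputed under 8 alternatives, 155 moved by less than 1.5-fold. The exception was the number of transporter probe sets at least 2-fold higher in the hairshaft, which was 5 in place of 10 with the offset of 16. For the medians this limit was hardly a check. Each median as reported lay within 0.57 of 0 on the log2 scale, itself under 1.5-fold, so a fall to 0 would have passed. With the mean of probe sets the Slc15 median was -0.21 in place of -0.42. The 6 genes higher in the bulge were the same 6 under each alternative. Of the 5 higher in the hairshaft, the mean of probe sets lost Slc1a4 and Slc6a2 and gained Slc38a2, plain probe sets lost Slc1a4 and gained Slc38a1, and the offset lost Slc6a19. Of 88 values of the 11 named genes, 21 moved by more than 1.5-fold and none changed sign. By the construction of the mean, probe sets at the floor pull it toward 0. A higher floor and the offset of 16 likewise shrink differences that involve low values, by their arithmetic. For the other alternatives the cause was not tested. No paired analysis was possible because each structure has 1 array, and leaving out a replicate was not possible either. Signals near the floor limit what can be seen of the 23 genes at or below it on both arrays.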

Other observations

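Carriers whose names begin like those of the 8 families but end in a letter fell outside the rule. Slc6a20a, a proline carrier, had 4.83 on the bulge array against 7.71 on the hairshaft array, 7.37-fold higher in the hairshaft, the same direction as Slc6a4, Slc6a2 and Slc6a19. Both probe sets of Slc6a20b, its neighbour in name, were below the floor on both arrays. The transcript Slc7a6os, named for lying opposite Slc7a6, had 6.69 and 7.65 with one probe set and 5.71 and 7.03 with the other, both higher in the hairshaft like Slc7a6. These genes were chosen after their values were seen.

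The deposited values of both arrays were exactly the same for 10 of 80 transporter probe sets above the floor (12.5%) and for 3288 of 28658 probe sets above it in all (11.5%). Among them were Slc43a2 at 6.65, Slc1a1 at 5.03 with 1460386_a_at and Slc1a3 at 4.32 with 1443749_x_at. An exact tie of this kind is not a measurement of equal expression.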
